A study of Homo sapiens with 24 samples.

Results

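The homologous recombination and Fanconi anaemia genes are 44 repair genes chosen by name from 60655 genes in a table of read counts. The rule is a list of names and uses no measured value, but the list was drawn up with earlier results of these data known. All 44 matched 1 Ensembl identifier each and passed the filter on low counts in every fit. The table held 24 bulk RNA-seq libraries of 2 human leukaemia lines of wild-type label, 3 libraries in each of 8 groups. NB4 is an acute promyelocytic leukaemia line that carries the PML-RARA fusion, and HL-60, labelled promyeloblast, is an acute myeloid leukaemia line without it. Cells grew in RPMI-1640 with foetal bovine serum and were left untreated or given all-trans retinoic acid (ATRA, 1 µM), arsenic trioxide (ATO, 0.8 µM) or both drugs for 48 h. Separate doses within the combination and the culture time of untreated cells are not stated by the labels. The labels number the libraries of a group as batches 1, 2 and 3 and do not say that they came from separate cultures, so the p-values reflect only how far these libraries spread, which may be technical.

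Homologous recombination copies an intact sister duplex to mend a double-strand break or a broken replication fork: the end is resected, the resected strand invades the intact duplex, and the joint molecule is dissolved or cut. The Fanconi anaemia pathway unhooks interstrand crosslinks; its core complex attaches ubiquitin to the FANCI-FANCD2 clamp, and the resulting break is passed to recombination. Many of these genes are transcribed mostly in S and G2 phase of dividing cells, and both drugs are known for making promyelocytic cells leave the cycle or mature.

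The libraries held 37811652 to 57795273 counts. Levels below are CPM (read counts scaled to library size) after TMM scaling over the 24 libraries, with mean ± SD over n = 3, and RPKM is CPM per kilobase of merged exon. Gene positions are those of GENCODE 29 on GRCh38. Changes are log2 ratios ± SE from edgeR's quasi-likelihood test, with p-values adjusted by Benjamini-Hochberg over all genes tested in a comparison, and a gene was called higher or lower at an adjusted p below 0.05. Summed myeloid precursor markers, 9 genes, fell in range from 9867–10554 CPM in untreated NB4 to 2599–3326 CPM with both drugs, and from 4809–5362 to 933–1136 CPM in HL-60. Not every precursor marker fell: 3 were called higher and 5 lower of 8 tested in NB4, and 1 higher and 7 lower of 9 in HL-60. Summed mature granulocyte markers, 13 genes with LCN2 at 0 throughout, ran the other way, from 297–306 to 5857–6599 CPM in NB4 and from 536–551 to 2447–2540 CPM in HL-60. Not all rose: 11 were called higher and 1 lower of 12 tested in NB4, and 9 and 2 of 11 in HL-60. Summed lymphoid markers, 7 genes with MS4A1 and CD8A at 0 throughout, went from 4.73–5.78 to 44.9–51.4 CPM in NB4 and from 2.27–3.26 to 3.74–5.61 CPM in HL-60. Of those tested, 3 of 4 were called higher and 0 lower in NB4, and 1 of 3 higher and 1 lower in HL-60. Summed monocyte and macrophage markers, 8 genes with MRC1 at 0 throughout, went from 4.91–6.98 to 36.3–52.9 CPM in NB4 and from 9.29–10.7 to 61.6–67.4 CPM in HL-60. Calls among these were 4 higher and 0 lower of 4 tested in NB4, and 3 higher and 2 lower of 5 in HL-60. The erythroid genes ALAS2, HBB and HBA2 were at 0 in every group. ATRA library 2 of NB4 and combination library 2 of HL-60 stood apart from the other libraries of their groups: the chi-square of counts over genes, divided by its degrees of freedom, was 20.51 and 39.28 for the NB4 pairs with that library against 15.45 for the pair without it, and 25.89 and 18.43 against 5.68 in HL-60.

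The promoters of cell-cycle genes are known for 3 short sequence elements, the E2F site, the CHR element and the CCAAT box. Promoter entries of 300 bases from RefSeq (GRCh38.p14; 250 bases before to 50 after a start site) existed for 39 of the 44 genes and were searched on both strands. The letters TTTCCCGC, TTTGGCGC, TTTCGCGC or TTTGCCGC, taken as an E2F site, were present in an entry of 7 of the 39 genes (17.9%), against 3.99% of all 27305 genes with an entry. Read per entry, the shares were 13.5% of 52 and 3.31% of 35116, and with the first entry of each gene only, 15.4% and 3.33%. The windows of 30 bases around each match are shown because the share with this element was the widest apart from that of all genes, with the matched letters in capitals.
XRCC2 chr7:152676102-152676131 minus strand: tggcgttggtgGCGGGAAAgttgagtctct
MCM8 chr20:5950667-5950696 plus strand: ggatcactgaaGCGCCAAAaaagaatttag
RMI1 chr9:83980762-83980791 plus strand: ggcgcgagcgcGCGGCAAAtcgggcgggaa
GEN1 chr2:17753859-17753888 plus strand: cagttgcggggTTTCGCGCcgccggagtct
FANCA chr16:89816801-89816830 minus strand: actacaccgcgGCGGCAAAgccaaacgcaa
FANCC chr9:95317863-95317892 minus strand: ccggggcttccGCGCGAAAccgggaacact
FANCC chr9:95317737-95317766 minus strand: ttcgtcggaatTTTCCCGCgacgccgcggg
FANCD2 chr3:10026424-10026453 plus strand: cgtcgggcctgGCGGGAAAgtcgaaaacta
CCAAT was found in 20 of the 39 genes (51.3%, against 39.7% of all genes) and TTTGAA, the CHR element, in 6 (15.4%, against 18.2%). With the first entry of each gene only, these shares were 43.6% against 35.7% and 12.8% against 15.4%. The 250 bases before the start are shown as examples for RAD54L and SLX4, with CCAAT letters of either strand in capitals. With the combination RAD54L fell at least 2-fold in both lines and was among the 4 largest called falls in HL-60 only. SLX4 moved in opposite directions in the 2 lines with the combination. In RAD54L the final CC begins a CCAAT that runs over the start site, and SLX4 has none of the 3 elements in these bases.
RAD54L chr1:46247438-46247687 plus strand: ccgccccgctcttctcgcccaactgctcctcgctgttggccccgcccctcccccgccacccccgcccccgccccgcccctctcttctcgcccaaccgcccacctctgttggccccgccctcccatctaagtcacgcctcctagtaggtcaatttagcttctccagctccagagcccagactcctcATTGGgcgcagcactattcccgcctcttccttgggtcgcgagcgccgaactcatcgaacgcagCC
SLX4 chr16:3611607-3611856 minus strand: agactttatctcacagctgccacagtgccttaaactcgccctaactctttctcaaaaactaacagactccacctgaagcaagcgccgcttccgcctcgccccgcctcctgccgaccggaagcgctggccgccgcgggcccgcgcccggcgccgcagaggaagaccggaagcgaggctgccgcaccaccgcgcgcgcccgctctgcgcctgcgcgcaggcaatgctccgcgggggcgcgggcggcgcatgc
Such matches describe letters in these windows and not binding. RAD54L and SLX4 do not stand for the 44 genes. CCAAT was also found in SFR1, SWI5, MUS81, GEN1, FANCF and FAAP24, called higher in NB4 with the combination. It was absent from XRCC2, BRCA2 and RBBP8, called lower there, and present in others called lower, such as PALB2 and BLM. The E2F letters were likewise found in genes called lower there (XRCC2, MCM8, RMI1 and FANCA), higher (GEN1) and not called (FANCC and FANCD2). They were absent from BRCA2, RAD54L and BLM, called lower there.

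In untreated cells USP1, UBE2T and FANCI stood at the top by RPKM in both lines. USP1, which strips ubiquitin from the FANCI-FANCD2 clamp, measured 38.9 ± 2.95 RPKM in NB4 and 49.5 ± 2.94 RPKM in HL-60. UBE2T, the conjugating enzyme, measured 33.5 ± 1.42 and 44.9 ± 2.21 RPKM, and the clamp subunit FANCI 34.3 ± 0.973 and 32.7 ± 1.17 RPKM. The other clamp subunit, FANCD2, ranked 15 in NB4 and 11 in HL-60, at 11.5 ± 0.325 and 16.7 ± 0.448 RPKM. Neither FANCI and UBE2T in NB4 nor USP1 and UBE2T in HL-60 differed beyond their spread. At the bottom were RAD51B at 0.746 ± 0.0466 and 0.667 ± 0.0826 RPKM, RAD50 at 0.457 ± 0.0907 and 0.269 ± 0.105 RPKM, and RAD54B at 0.326 ± 0.0655 and 1.27 ± 0.275 RPKM. RAD50 shares 79.7% of its exon length with AC116366.3, a gene at 0 CPM, and RAD54B shares 59.1% with FSBP, both on the same strand, so reads that match both genes may not have been assigned. XRCC3 shares 76.7% with KLC1, RAD54L 25.1% with LRRC41 and FANCA 23.6% with ZNF276, all on the opposite strand, and the library kit does not mark strand. Between the untreated lines 9 genes were higher and 21 lower in NB4 than in HL-60, where 29.1% and 34.0% of all 17930 genes were, together 63.2%. The widest differences in log2 level were RAD54B at -1.96 ± 0.23, the resection cofactor RBBP8 at -1.49 ± 0.082, FANCF at -1.35 ± 0.13 and the resolvase GEN1 at -1.29 ± 0.10 on the lower side. TOP3A, the topoisomerase that unlinks joint molecules, at 1.01 ± 0.068, BRCA2 at 0.91 ± 0.12 and DNA2 at 0.84 ± 0.081 were the widest on the higher side. RAD50, at 0.77 ± 0.24, was called higher in NB4 without the batch term and not with it (edgeR adjusted p = 0.00561 and 0.0657).

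Called falls outnumbered called rises among the 44 genes in all 6 treatments, and the combination gave more called falls than either drug alone in both lines. In NB4, ATRA gave 9 genes higher and 23 lower, with 31.3% and 28.6% of all 16370 genes tested called in those directions. ATO gave 4 higher and 19 lower (all genes 21.2% and 19.6%), a split that became 9 and 15 when library totals replaced TMM scaling. Both drugs gave 10 higher and 28 lower (all genes 35.4% and 32.8%). The median log2 change of the 44 genes was -0.25, -0.18 and -0.39 in that order, beside 0.03, 0.02 and 0.05 for all genes. In HL-60, ATRA gave 0 higher and 22 lower by edgeR (all genes 25.2% and 23.3% of 15895, together 48.6%); 0 genes were also higher by DESeq2, by limma-voom and at an unadjusted p below 0.05. ATO gave 2 higher and 8 lower in HL-60 (all genes 16.5% and 12.1%). That split was 3 and 7 with library totals and 1 and 10 with DESeq2's size factors, and the count of 10 fell to 5 without ATO library 2 and to 6 without untreated library 1 or 3 or ATO library 1. Both drugs gave 4 higher and 32 lower in HL-60 (all genes 30.7% and 29.7%). Medians in HL-60 were -0.21, -0.09 and -0.45, beside 0.01, 0.02 and -0.003 for all genes. The 3 comparisons of a line share its untreated libraries and are not independent of each other. In bulk RNA, fewer cells of a type and less RNA per cell cannot be told apart. Without ATRA library 2, NB4 ATRA gave 9 genes higher and 26 lower, and without combination library 2, the HL-60 combination gave 4 higher and 33 lower.

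**Figure D1:**
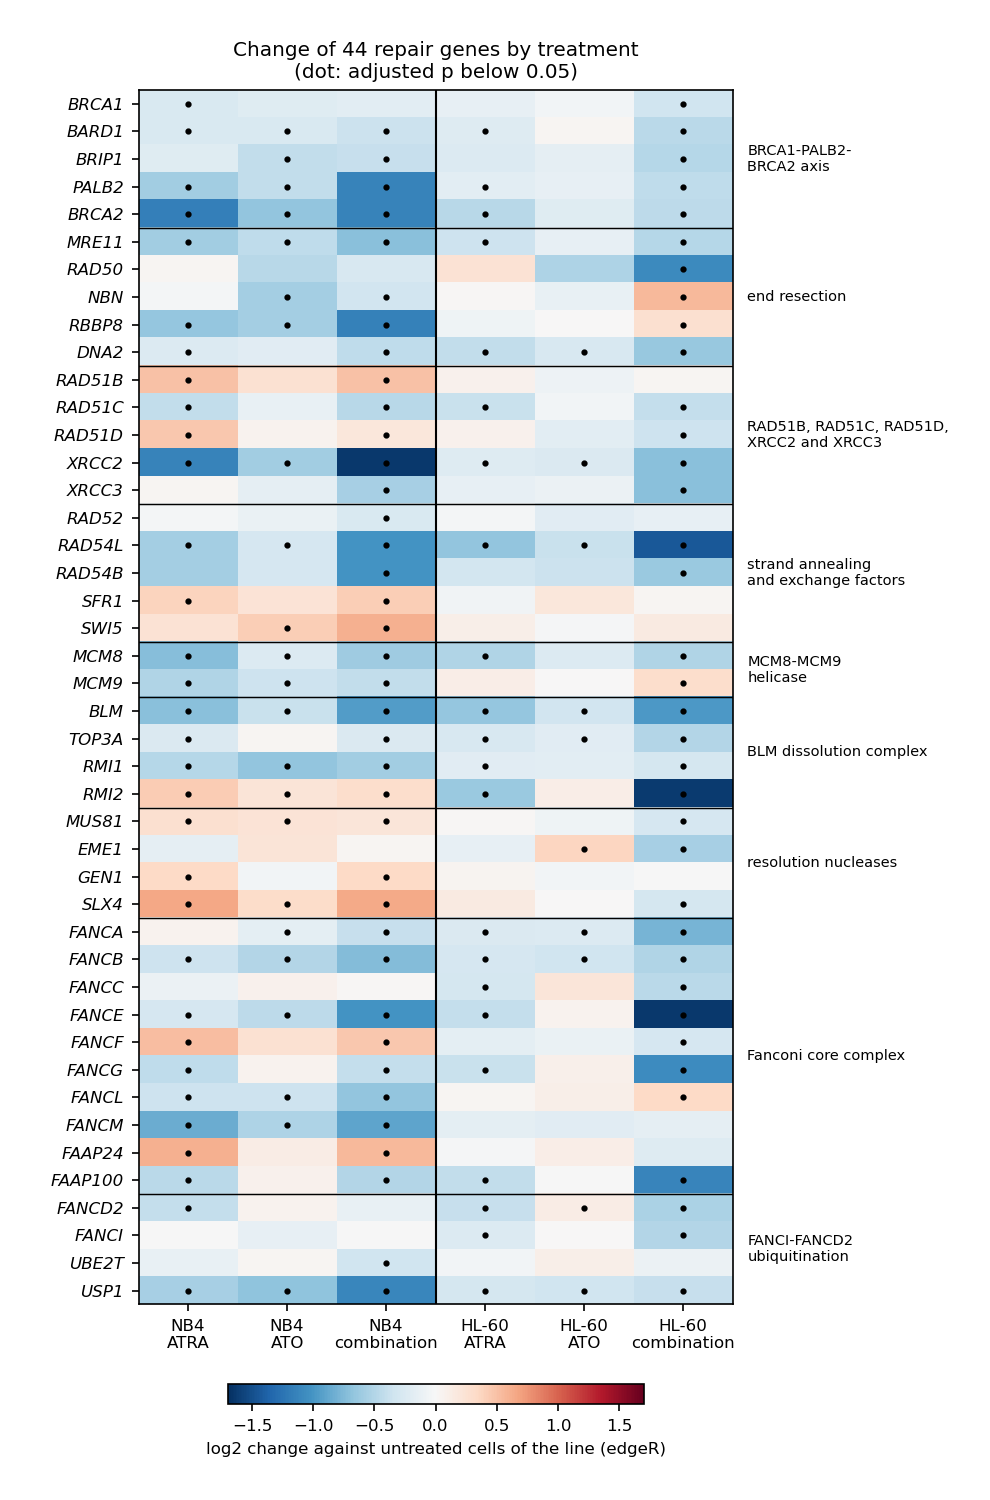
Log2 change of each of the 44 genes (rows, ordered by role) against untreated cells of the same line in the 6 treatments (columns). Blue is lower and red is higher than untreated; a black dot marks an edgeR adjusted p below 0.05, and the combination columns hold the deepest blues, with XRCC2 at -1.64 in NB4 and FANCE at -1.64 in HL-60.

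In NB4, 16 genes were called lower with each of the 3 treatments, among them BRCA2, PALB2, XRCC2, RAD54L, BLM, FANCE and USP1, and RMI2, MUS81 and SLX4 were called higher with each. Of all genes tested in NB4, 14.2% were lower and 15.3% higher with each. RAD50, EME1, FANCC and FANCI were called with none. In HL-60, 8 genes were called lower with each treatment, namely DNA2, XRCC2, RAD54L, BLM, TOP3A, FANCA, FANCB and USP1, where 6.99% of all genes were. No member was called higher with each, against 10.3% of all genes, and RAD51B, RAD52, SFR1, SWI5, GEN1, FANCM, FAAP24 and UBE2T were called with none. All 28 genes lower with the combination in NB4 had 3 treated libraries below 3 untreated ones, and so had 31 of the 32 in HL-60, the exception being MUS81. Over all tested genes, called or not, 34.4% in NB4 and 31.3% in HL-60 were separated that way, beside 32.8% and 29.7% called lower. The separated share among all called genes was not taken, so these counts do not set the members apart. Such separation fixes the sign of the change within each batch number, so that sign adds nothing for the separated genes. For MUS81 in HL-60 it was also the same in each batch number. At least a 2-fold fall was seen for 8 genes in NB4 and 6 in HL-60, and no rise with the combination reached 2-fold.

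In the BRCA1-PALB2-BRCA2 axis, 4 of 5 genes, all but BRCA1, were called lower in NB4 under the combination, and 5 of 5 in HL-60. Of all genes 32.8% and 29.7% were called lower, and counts in role groups this small are coarse. BRCA2 (chr13:32315474-32400266, plus strand), which acts after resection to enable strand invasion, measured 174, 151 and 127 CPM untreated, 59.7, 83.1 and 55.6 with ATRA, 95.6, 97.6 and 92.4 with ATO and 77.1, 64.8 and 66 with both drugs in NB4. HL-60 libraries held 90.6, 70.8 and 78.9 CPM untreated, 57.5, 60.4 and 54.6 with ATRA, 67.8, 73 and 66.1 with ATO and 59.9, 47.1 and 68 with both drugs. Every treated NB4 library lay below every untreated one, and in HL-60 the ATO group overlapped the untreated group while the others did not. The log2 change in NB4 was -1.17 ± 0.12 with ATRA, -0.68 ± 0.12 with ATO and -1.13 ± 0.12 with both (edgeR adjusted p = 1.83e-08), and the combination and ATRA groups overlapped. In HL-60 the combination change was -0.44 ± 0.098 (edgeR adjusted p = 0.000446). PALB2 (chr16:23603160-23641310, minus strand), which bridges BRCA1 and BRCA2, measured 40, 42.8 and 39.6 CPM untreated, 25.7, 29.3 and 25.5 with ATRA, 31.2, 33 and 28.2 with ATO and 21.1, 17.9 and 16.9 with both drugs in NB4. Its HL-60 values were 52.9, 54 and 55.1 CPM untreated, 48.1, 49.6 and 44.7 with ATRA, 49.8, 49.7 and 45.7 with ATO and 38.9, 38.8 and 40.8 with both drugs. Both single-drug groups of NB4 lay between the untreated and the combination groups with no overlap, and in HL-60 the combination group lay below the other 3. Its combination change was -1.14 ± 0.092 in NB4 (edgeR adjusted p = 2.52e-10) and -0.43 ± 0.061 in HL-60 (edgeR adjusted p = 1.9e-06). BRCA1 (chr17:43044295-43170245, minus strand), the ubiquitin ligase that recruits PALB2 to breaks, measured 126, 118 and 113 CPM untreated, 89.4, 120 and 84.8 with ATRA, 102, 108 and 103 with ATO and 119, 99.1 and 99 with both drugs in NB4, and 177, 143 and 175 CPM untreated, 149, 150 and 145 with ATRA, 159, 155 and 159 with ATO and 136, 111 and 138 with both drugs in HL-60. In NB4 the ATRA and combination groups overlapped untreated cells and the ATO group lay below them, and in HL-60 the combination group lay below the other 3. With both drugs it changed by -0.18 ± 0.098 in NB4, where it was not called (edgeR adjusted p = 0.108), and -0.34 ± 0.074 in HL-60 (edgeR adjusted p = 0.000337). ATRA alone gave a called change of -0.26 ± 0.099 in NB4 (edgeR adjusted p = 0.0278), although ATRA library 2 lay within the untreated range. The NB4 combination value passed the threshold when combination library 1 was left out (adjusted p = 0.0374), when only these 2 groups were fitted and when every gene with at least 1 read was kept. BARD1, the partner of BRCA1 in the ligase, fell in both lines, with log2 changes of -0.37 ± 0.072 and -0.46 ± 0.064. The helicase BRIP1 changed by -0.39 ± 0.10 and -0.48 ± 0.098.

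Of 5 end resection genes, 4 were called lower with the combination in NB4 (all genes 32.8%). In HL-60 they split, with 3 lower and 2 higher (all genes 29.7% and 30.7%). RBBP8 (chr18:22798261-23026488, plus strand), known as CtIP and the cofactor that starts resection, measured 42, 35.4 and 36 CPM untreated, 23.6, 26.4 and 20.8 with ATRA, 26.2, 27.3 and 22.8 with ATO and 17.6, 16.5 and 17.1 with both drugs in NB4. HL-60 cells held 101, 106 and 112 CPM untreated, 96.9, 102 and 101 with ATRA, 108, 105 and 105 with ATO and 139, 112 and 130 with both drugs. Levels in NB4 fell with each treatment and did not overlap those of untreated cells, whereas the HL-60 combination group reached down to the highest untreated library without crossing it. Under the combination it changed by -1.15 ± 0.098 in NB4 (edgeR adjusted p = 5.69e-10) and 0.28 ± 0.063 in HL-60 (edgeR adjusted p = 0.000639), and the difference between the lines was -1.40 ± 0.12 (edgeR adjusted p = 1.21e-11). NBN (chr8:89933336-90003228, minus strand), the signalling subunit of the MRE11-RAD50-NBN nuclease complex, measured 113, 111 and 96.3 CPM untreated, 92.8, 123 and 91.4 with ATRA, 73.9, 71.1 and 72.4 with ATO and 84.2, 78.9 and 94 with both drugs in NB4. The HL-60 series read 97.1, 103 and 113 CPM untreated, 100, 108 and 108 with ATRA, 93.2, 97.8 and 94.8 with ATO and 160, 135 and 158 with both drugs. Its 3 HL-60 combination libraries were the highest of the 24, and the NB4 ATO and combination groups lay below untreated NB4. Both drugs together changed it by -0.33 ± 0.095 in NB4 (edgeR adjusted p = 0.00424) and 0.55 ± 0.064 in HL-60 (edgeR adjusted p = 1.06e-07). The nuclease MRE11 of the same complex fell in both lines, with changes of -0.71 ± 0.10 and -0.48 ± 0.065. RAD50, the third subunit, changed by -1.08 ± 0.26 in HL-60 (edgeR adjusted p = 0.00122) at a level near the bottom of the range, and was not called in NB4 at -0.28 ± 0.21. DNA2, the nuclease of long-range resection, fell in both lines, with changes of -0.43 ± 0.078 and -0.64 ± 0.079.

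RAD51B, RAD51C, RAD51D, XRCC2 and XRCC3, which help strand invasion, did not move together. XRCC2 (chr7:152644779-152676165, minus strand) had the largest fall of the 44 genes in NB4. It measured 97.5, 91.6 and 93.3 CPM untreated, 41.9, 48.2 and 37 with ATRA, 68, 62.9 and 59 with ATO and 31.4, 28.9 and 30.8 with both drugs in NB4, and 88.5, 88.5 and 98.7 CPM untreated, 81.6, 73.4 and 81.1 with ATRA, 78.8, 73.8 and 77.3 with ATO and 55.9, 48 and 63.1 with both drugs in HL-60. No treated group overlapped the untreated group of its line. The log2 change in NB4 was -1.13 ± 0.083 with ATRA, -0.59 ± 0.082 with ATO and -1.64 ± 0.085 with both (edgeR adjusted p = 1.04e-13), and in HL-60 -0.71 ± 0.076 with both (edgeR adjusted p = 3.53e-08). RAD51B (chr14:67819779-68730218, plus strand) measured 5.93, 5.58 and 5.23 CPM untreated, 7.51, 8.75 and 7.08 with ATRA, 7.06, 6.23 and 7.03 with ATO and 7.4, 9.14 and 7.24 with both drugs in NB4, where all treated libraries lay above the untreated ones. HL-60 values were 4.35, 5.59 and 5.03 CPM untreated, 4.92, 5.36 and 5.42 with ATRA, 4.42, 4.6 and 5.05 with ATO and 5.47, 5.39 and 4.3 with both drugs, and these groups overlapped. Its change with both drugs was 0.50 ± 0.13 in NB4 (edgeR adjusted p = 0.00186) and 0.04 ± 0.14 in HL-60 (edgeR adjusted p = 0.848). XRCC3 (chr14:103697609-103715504, minus strand) measured 45.3, 46.8 and 48.4 CPM untreated, 44.9, 46.4 and 49.9 with ATRA, 41.1, 41.8 and 45.3 with ATO and 34.2, 34.7 and 26.8 with both drugs in NB4. In HL-60 it measured 46.8, 48.2 and 45 CPM untreated, 42, 42.9 and 41.9 with ATRA, 46.4, 42.5 and 40.2 with ATO and 27.2, 30.3 and 27 with both drugs. Each combination group lay below every other group of its line, and changed by -0.56 ± 0.088 in NB4 (edgeR adjusted p = 6.32e-06) and -0.71 ± 0.069 in HL-60 (edgeR adjusted p = 6.06e-09). KLC1, which shares most of XRCC3's exons on the other strand, changed by 0.36 ± 0.084 and -0.09 ± 0.075, and its part in the XRCC3 values was not tested. RAD51C fell, with changes of -0.47 ± 0.069 and -0.41 ± 0.067. RAD51D rose in NB4 by 0.19 ± 0.080 and fell in HL-60 with a change of -0.35 ± 0.068, and the NB4 call was lost without untreated library 2 or 3 or combination library 1 or 2.

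Among the factors of strand annealing and exchange, the motor protein RAD54L (chr1:46247688-46278473, plus strand), whose promoter bases are given above, fell in every treatment. It measured 72.1, 70.1 and 78 CPM untreated, 47.5, 47.8 and 49.6 with ATRA, 59.6, 64 and 58.3 with ATO and 39.8, 37.6 and 31.8 with both drugs in NB4. In HL-60 the values were 81.8, 70.5 and 78.3 CPM untreated, 48, 44.1 and 51.4 with ATRA, 58.7, 58.9 and 58.6 with ATO and 26.5, 29.5 and 27.5 with both drugs. The treated groups did not overlap the untreated group in either line, and the combination groups were the lowest. Its combination change was -1.02 ± 0.080 in NB4 (edgeR adjusted p = 1.46e-10) and -1.45 ± 0.070 in HL-60 (edgeR adjusted p = 2.84e-14), beside 0.20 ± 0.073 and 0.09 ± 0.067 for the overlapping LRRC41. SWI5 (chr9:128275379-128288990, plus strand), which forms a complex with SFR1 that helps strand exchange, measured 6.55, 7.76 and 8.04 CPM untreated, 9.84, 6.78 and 9.62 with ATRA, 10.6, 9.9 and 9.73 with ATO and 9.71, 12.7 and 11.8 with both drugs in NB4. HL-60 libraries measured 6.96, 8.16 and 7.3 CPM untreated, 7.13, 6.99 and 9.77 with ATRA, 7.84, 6.95 and 7.13 with ATO and 7.89, 7.9 and 8.83 with both drugs. The NB4 combination and ATO groups lay above untreated NB4, while ATRA overlapped it, and no treated HL-60 group was separated from untreated cells. With both drugs it changed by 0.61 ± 0.14 in NB4 (edgeR adjusted p = 0.000542) and 0.15 ± 0.13 in HL-60 (edgeR adjusted p = 0.346). SFR1 rose in NB4 by 0.42 ± 0.12 and was at 0.04 ± 0.096 in HL-60. RAD54B changed by -1.01 ± 0.33 and -0.64 ± 0.15, beside -0.69 ± 0.22 and -0.67 ± 0.14 for FSBP, with which it shares exons, and its NB4 call was lost without combination library 3. The annealing factor RAD52 changed by -0.26 ± 0.091 in NB4 (edgeR adjusted p = 0.0147), lost without untreated library 3 or combination library 2, and was not called in HL-60 at -0.14 ± 0.089.

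The MCM8-MCM9 helicase, which helps DNA synthesis in recombination, split in HL-60. MCM9 (chr6:118813442-118935162, minus strand) measured 25.9, 24.1 and 25 CPM untreated, 17.4, 19.1 and 15.6 with ATRA, 20.5, 19.2 and 19.7 with ATO and 19.1, 18 and 19.2 with both drugs in NB4, and 32.5, 33.7 and 33.2 CPM untreated, 33.5, 37.5 and 35.4 with ATRA, 32.3, 34.4 and 32.5 with ATO and 42.4, 36.9 and 41.9 with both drugs in HL-60. All treated NB4 libraries lay below untreated ones and all HL-60 combination libraries lay above. Under the combination it changed by -0.42 ± 0.086 in NB4 (edgeR adjusted p = 0.000152) and 0.30 ± 0.069 in HL-60 (edgeR adjusted p = 0.000598). Its partner MCM8 fell, with changes of -0.60 ± 0.092 and -0.51 ± 0.089.

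In the BLM complex, which dissolves double Holliday junctions without crossover, the subunit RMI2 gave the widest gap between the lines of all 44 genes. RMI2 (chr16:11249619-11381662, plus strand) measured 21.5, 19.7 and 20 CPM untreated, 27.5, 28.3 and 25.3 with ATRA, 24.2, 23.1 and 24.8 with ATO and 25.4, 26 and 24.5 with both drugs in NB4, and 33.2, 37.6 and 33.6 CPM untreated, 22.8, 22.3 and 21.7 with ATRA, 36.6, 40.4 and 35 with ATO and 10.5, 12.1 and 10.7 with both drugs in HL-60. Every treated NB4 library was above the untreated ones, and in HL-60 the ATRA and combination groups were below them while ATO overlapped. Both drugs together changed it by 0.30 ± 0.079 in NB4 (edgeR adjusted p = 0.00168) and -1.63 ± 0.083 in HL-60 (edgeR adjusted p = 8.29e-14), and the difference was 1.96 ± 0.11 (edgeR adjusted p = 1.89e-15). RMI1 (chr9:83980711-84004074, plus strand), the partner of RMI2, measured 42.4, 40.9 and 38.7 CPM untreated, 28.8, 33.3 and 24.1 with ATRA, 26.4, 26.5 and 24.9 with ATO and 28.1, 25.5 and 27.5 with both drugs in NB4. Its HL-60 levels were 59.3, 61.2 and 61.8 CPM untreated, 54.6, 52.1 and 51.5 with ATRA, 50.6, 54.7 and 53.6 with ATO and 51.9, 40.4 and 53.8 with both drugs. No treated group overlapped the untreated group of its line, and the 3 treated groups of NB4 overlapped one another. Its combination change was -0.60 ± 0.093 in NB4 (edgeR adjusted p = 6.77e-06) and -0.30 ± 0.079 in HL-60 (edgeR adjusted p = 0.00186). The helicase BLM fell in both, with changes of -0.95 ± 0.096 and -0.97 ± 0.055, and the difference between the lines was 0.04 ± 0.12 (edgeR adjusted p = 0.815). TOP3A fell, with changes of -0.25 ± 0.071 and -0.49 ± 0.070.

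The nucleases that cut joint molecules were the role group with no called fall in NB4. With the combination 3 of 4 were higher in NB4 (all genes 35.4%), and 3 of 4 were lower in HL-60 (all genes 29.7%). SLX4 (chr16:3581181-3611598, minus strand), the scaffold that gathers several nucleases, measured 29.4, 25.5 and 27.9 CPM untreated, 42, 41 and 45.2 with ATRA, 34.8, 33.3 and 35.7 with ATO and 46, 43.6 and 40.7 with both drugs in NB4. Its HL-60 values were 30.1, 26.2 and 30.3 CPM untreated, 30.3, 32.1 and 32.8 with ATRA, 30.2, 27.1 and 29 with ATO and 23.1, 22.3 and 24.3 with both drugs. Every treated NB4 library lay above the untreated ones, and only the combination group was separated from untreated cells in HL-60, below them. The change with both drugs was 0.65 ± 0.077 in NB4 (edgeR adjusted p = 1.43e-07) and -0.29 ± 0.076 in HL-60 (edgeR adjusted p = 0.00186). MUS81, a catalytic subunit, rose by 0.21 ± 0.079 in NB4 and changed by -0.29 ± 0.083 in HL-60, with overlap between the groups in each line and a loss of the NB4 call without untreated library 1 or 2 or combination library 1 or 2. GEN1, a resolvase that acts alone, rose by 0.34 ± 0.11 in NB4 and was at -0.003 ± 0.077 in HL-60, and the NB4 call was lost without combination library 3. EME1, the partner of MUS81, was at 0.03 ± 0.087 in NB4 and fell in HL-60 with a change of -0.56 ± 0.077, beside a rise of 0.36 ± 0.074 with ATO alone (edgeR adjusted p = 0.000672).

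**Figure D2:**
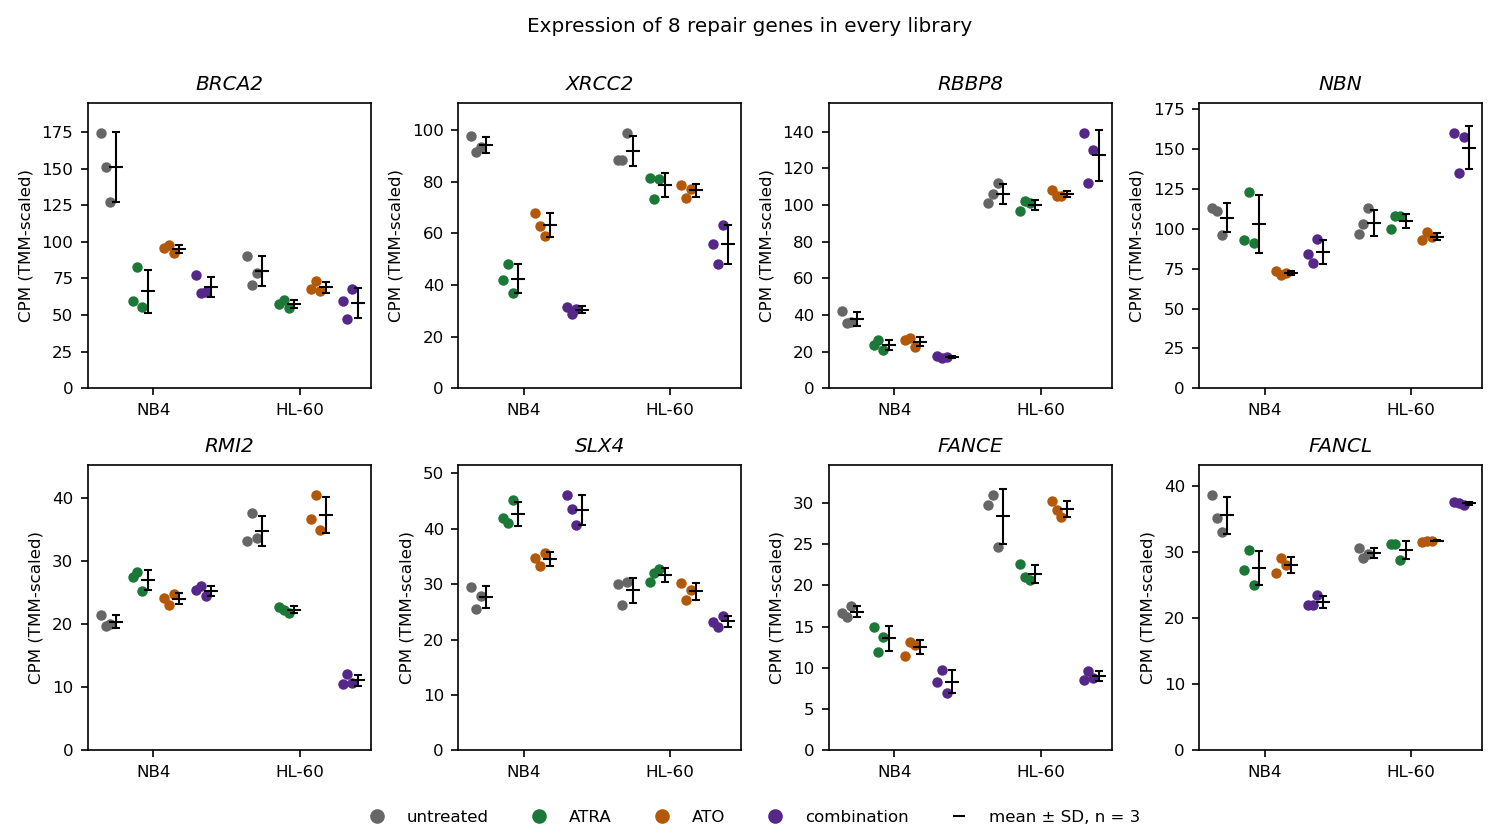
Level of 8 genes in every library (CPM, TMM-scaled, linear axes from 0), by line and treatment. Each dot is 1 library and the bar beside it is the mean ± SD of 3; NBN, RBBP8 and FANCL rise with the combination in HL-60 and fall in NB4, RMI2 and SLX4 do the reverse, and FANCE falls in both.

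The Fanconi core complex had 2 genes higher and 7 lower of 10 in NB4 with the combination, and 1 higher and 7 lower in HL-60. Of all genes 35.4% were higher and 32.8% lower in NB4, and 30.7% and 29.7% in HL-60. FANCE (chr6:35452356-35467103, plus strand), which links the core to FANCD2, measured 16.7, 16.2 and 17.5 CPM untreated, 15, 11.9 and 13.8 with ATRA, 11.5, 13.2 and 12.8 with ATO and 8.31, 9.71 and 6.94 with both drugs in NB4. In HL-60 it measured 29.7, 30.9 and 24.6 CPM untreated, 22.6, 21 and 20.6 with ATRA, 30.2, 29.2 and 28.3 with ATO and 8.53, 9.63 and 8.83 with both drugs. Its HL-60 combination libraries were far below the other groups and ATO libraries overlapped untreated ones, and in NB4 each treated group lay below untreated cells. With both drugs it changed by -1.02 ± 0.12 in NB4 (edgeR adjusted p = 1.02e-07) and -1.64 ± 0.092 in HL-60 (edgeR adjusted p = 4.74e-13). In NB4 with ATRA alone its change of -0.29 ± 0.12 was called without the batch term and not with it (edgeR adjusted p = 0.0383 and 0.052). FANCL (chr2:58159243-58241372, minus strand), the ubiquitin ligase subunit, measured 38.5, 35.1 and 33 CPM untreated, 27.2, 30.2 and 25 with ATRA, 26.8, 29.1 and 28 with ATO and 21.9, 21.9 and 23.5 with both drugs in NB4, and 30.6, 29 and 29.7 CPM untreated, 31.1, 31.2 and 28.8 with ATRA, 31.5, 31.7 and 31.7 with ATO and 37.5, 37.3 and 37.1 with both drugs in HL-60. The combination libraries were the lowest of NB4 and the highest of HL-60. Its changes were -0.68 ± 0.085 in NB4 (edgeR adjusted p = 3.42e-07) and 0.34 ± 0.062 in HL-60 (edgeR adjusted p = 5.24e-05), and the difference was -0.99 ± 0.10 (edgeR adjusted p = 1.31e-09). FAAP100 (chr17:81539885-81553961, minus strand), which joins FANCL and FANCB in the catalytic module, measured 38.1, 33.4 and 41.8 CPM untreated, 26.2, 24.3 and 31.2 with ATRA, 40.6, 38.9 and 41.3 with ATO and 27.4, 29.1 and 23.8 with both drugs in NB4. HL-60 cells gave 57.8, 57.4 and 47.2 CPM untreated, 41.7, 41.5 and 37.6 with ATRA, 60.5, 50.6 and 49.3 with ATO and 21.9, 30.1 and 21.3 with both drugs. ATRA and the combination lowered it without overlap in both lines, and the ATO groups overlapped untreated cells. Under the combination it changed by -0.50 ± 0.099 in NB4 (edgeR adjusted p = 0.000109) and -1.12 ± 0.11 in HL-60 (edgeR adjusted p = 7.22e-09).

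FANCA (chr16:89737549-89816657, minus strand), the gene most often mutated in Fanconi anaemia and a core scaffold, measured 76.2, 76.2 and 78.3 CPM untreated, 80.9, 75.5 and 81.3 with ATRA, 71.2, 69.5 and 67.4 with ATO and 61.3, 59.6 and 55.2 with both drugs in NB4. Its HL-60 levels read 68.8, 60.3 and 66.1 CPM untreated, 56.1, 53 and 54 with ATRA, 58.7, 52.1 and 54.2 with ATO and 34.2, 40 and 37.3 with both drugs. In HL-60 all treated groups lay below untreated cells, and in NB4 only ATRA did not. Both drugs together changed it by -0.40 ± 0.064 in NB4 (edgeR adjusted p = 9.76e-06) and -0.79 ± 0.069 in HL-60 (edgeR adjusted p = 1.11e-09), beside -0.15 ± 0.078 and -0.03 ± 0.093 for ZNF276. With ATO alone in NB4 its change of -0.16 ± 0.064 was called only without the batch term (edgeR adjusted p = 0.0456 and 0.0679). FANCF (chr11:22622890-22625841, minus strand), an adaptor of the core, measured 4.59, 4.07 and 4.72 CPM untreated, 6.68, 6.22 and 6.12 with ATRA, 5.82, 5.54 and 4.81 with ATO and 5.08, 6.2 and 7.16 with both drugs in NB4. HL-60 libraries read 11.4, 12.3 and 10.5 CPM untreated, 10.3, 10.2 and 9.98 with ATRA, 9.14, 11.3 and 10.9 with ATO and 8.5, 9.68 and 9.44 with both drugs. Each NB4 treated group lay above untreated cells, and in HL-60 the ATRA and combination groups lay below the lowest untreated value. Its combination change was 0.45 ± 0.14 in NB4 (edgeR adjusted p = 0.00848), lost without combination library 3, and -0.29 ± 0.11 in HL-60 (edgeR adjusted p = 0.0224), lost without untreated library 2 or combination library 1. FAAP24 (chr19:32972209-32978222, plus strand), which targets FANCM to DNA, measured 5.19, 6.33 and 5.64 CPM untreated, 8.98, 8.92 and 7.72 with ATRA, 6.74, 5.39 and 6.83 with ATO and 8.4, 8.38 and 8.52 with both drugs in NB4, and 7.97, 8.62 and 7.4 CPM untreated, 6.85, 8.8 and 7.89 with ATRA, 8.61, 8.81 and 8.36 with ATO and 5.94, 7.66 and 6.78 with both drugs in HL-60. ATRA and the combination raised it in NB4 without overlap, and no treated HL-60 group was separated from untreated cells. With both drugs it changed by 0.55 ± 0.13 in NB4 (edgeR adjusted p = 0.000548) and -0.21 ± 0.12 in HL-60 (edgeR adjusted p = 0.143), where it was called without combination library 2 or with library totals in place of TMM. FANCM, the translocase that FAAP24 binds, fell in NB4, with a change of -0.90 ± 0.12, and was at -0.16 ± 0.11 in HL-60. FANCG fell, with changes of -0.41 ± 0.075 and -1.06 ± 0.068, FANCB with changes of -0.73 ± 0.15 and -0.51 ± 0.12, and FANCC was at 0.01 ± 0.092 in NB4 and fell in HL-60 with a change of -0.46 ± 0.081.

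Of the 4 genes of the clamp and its ubiquitin cycle, 2 were lower with the combination in NB4 and 3 in HL-60 (all genes 32.8% and 29.7%). FANCD2 (chr3:10026414-10101930, plus strand) measured 98.3, 97.6 and 93.3 CPM untreated, 70.6, 77.2 and 68.1 with ATRA, 102, 103 and 100 with ATO and 93, 85.1 and 88.6 with both drugs in NB4. In HL-60 it measured 139, 136 and 144 CPM untreated, 104, 106 and 108 with ATRA, 154, 150 and 148 with ATO and 97.2, 94.4 and 93.3 with both drugs. ATRA libraries were the lowest of NB4, and the HL-60 combination libraries lay below those of the other 3 groups, with ATO libraries above untreated ones. Under the combination it changed by -0.12 ± 0.064 in NB4 (edgeR adjusted p = 0.0857) and -0.54 ± 0.046 in HL-60 (edgeR adjusted p = 6.41e-10). FANCI was at -0.01 ± 0.083 in NB4 and fell in HL-60 with a change of -0.49 ± 0.043. UBE2T fell in NB4, with a change of -0.34 ± 0.069, and was at -0.09 ± 0.053 in HL-60. USP1 fell in both, with changes of -1.10 ± 0.083 and -0.39 ± 0.059.

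**Figure D3:**
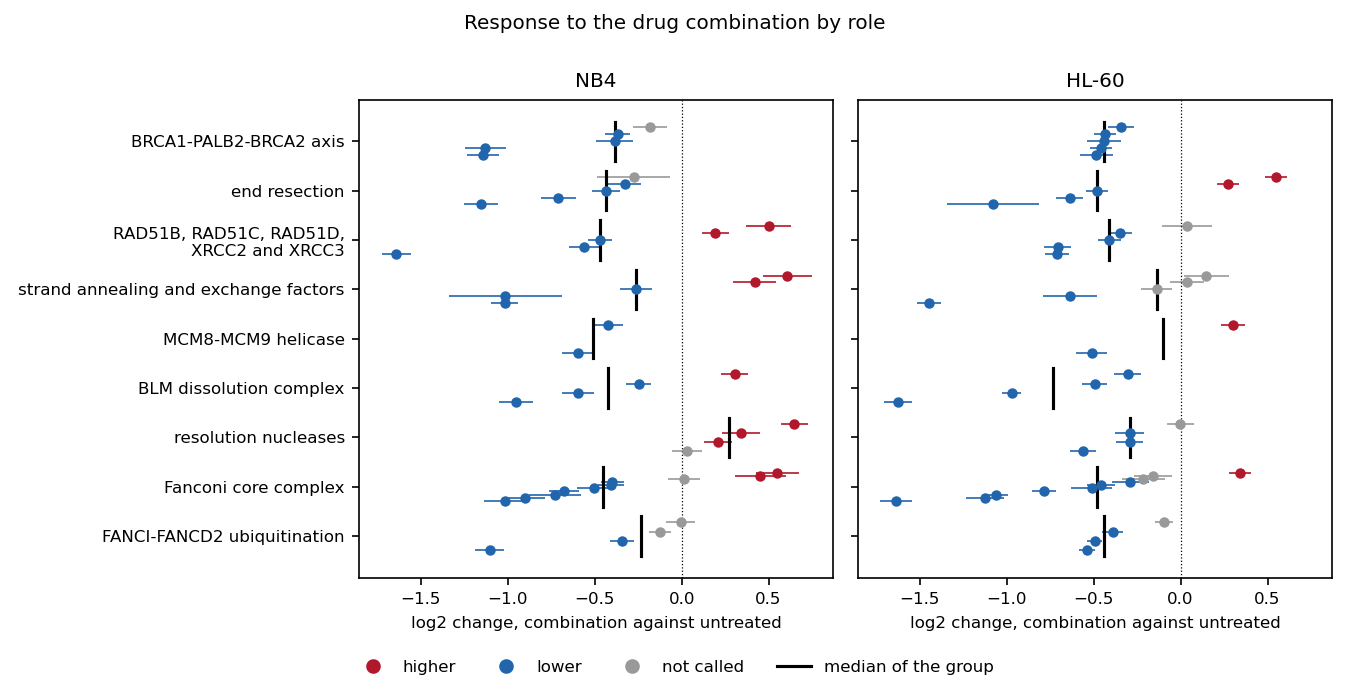
Log2 change with the combination against untreated cells for the 44 genes in 9 role groups, NB4 left and HL-60 right. Each dot is 1 gene with its SE, red for called higher, blue for called lower and grey for not called, and the black bar is the group's median; the resolution nucleases have a median of 0.28 in NB4 and -0.29 in HL-60.

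The combination response was then compared between the lines in 1 fit over the 24 libraries. The difference was called for 30 of the 44 genes, 20 with a higher value in NB4 and 10 with a lower one, where 24.9% and 22.7% of all genes were. The median difference was 0.21, and the median over all genes was 0.11. By the calls within each line, 21 genes were lower in both, 5 were higher in NB4 and lower in HL-60 (RAD51D, RMI2, MUS81, SLX4 and FANCF), and 4 were lower in NB4 and higher in HL-60 (NBN, RBBP8, MCM9 and FANCL). Over the 14562 genes tested in both lines, those joint calls held 19.8%, 4.67% and 5.29% of genes in the same order. The difference itself was called for all 9 of these opposed genes. Of the 21 shared falls, XRCC2 (-0.91 ± 0.12), USP1 (-0.69 ± 0.11), PALB2 (-0.68 ± 0.11) and BRCA2 (-0.66 ± 0.17) fell further in NB4. FANCG (0.68 ± 0.099), FAAP100 (0.65 ± 0.16), FANCE (0.65 ± 0.15), RAD54L (0.45 ± 0.11), FANCA (0.42 ± 0.092) and TOP3A (0.27 ± 0.097) fell further in HL-60. With ATRA alone 7 genes were higher and 8 lower in NB4 relative to HL-60 (all genes 17.7% and 16.8%), led by RMI2 at 1.05 ± 0.11 and FANCF at 0.68 ± 0.17 on one side and XRCC2 at -0.93 ± 0.12 and BRCA2 at -0.71 ± 0.17 on the other. With ATO alone 1 was higher and 6 were lower (all genes 7.11% and 6.00%), and with library totals in place of TMM the split was 4 and 3. SLX4 was the higher one at 0.33 ± 0.11, and RBBP8 at -0.56 ± 0.12 and FANCE at -0.47 ± 0.14 were the widest of the lower ones. The count of 7 for ATO became 4 without HL-60 ATO library 2.

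**Figure D4:**
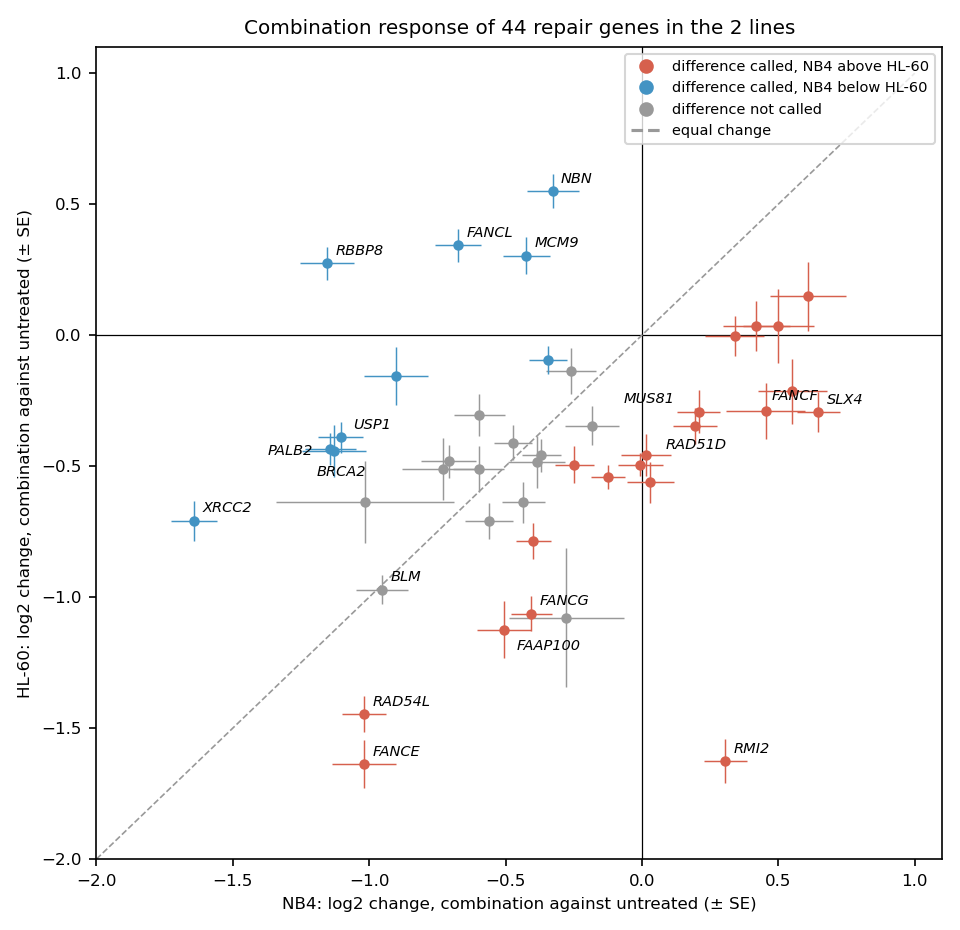
Combination response of the 44 genes in NB4 (horizontal) against HL-60 (vertical), as log2 changes with SE bars; the dashed line marks equal change. Red and blue mark genes whose difference between the lines was called (20 above and 10 below in NB4) and grey marks the rest, with RMI2 farthest to the lower right at 0.30 and -1.63.

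Each drug was also compared on top of the other, and these comparisons share the combination libraries. In NB4 adding ATO to ATRA left 2 genes higher and 13 lower (all genes 16.8% and 21.2%, together 38.0%), or 6 and 8 with library totals in place of TMM. Adding ATRA to ATO left 4 higher and 21 lower (all genes 28.6% and 28.3%, together 56.9%). FANCE, at -0.73 ± 0.12, and XRCC3, at -0.59 ± 0.088, fell furthest from the ATRA level, and XRCC2, at -1.05 ± 0.084, fell furthest from the ATO level. BRCA2 was at 0.04 ± 0.12 against ATRA alone and SLX4 at -0.01 ± 0.076. In HL-60 adding ATO to ATRA left 4 higher and 22 lower (all genes 22.0% and 21.9%), with the low-level RAD50 at -1.32 ± 0.26, FANCE at -1.24 ± 0.092 and RMI2 at -0.99 ± 0.084. Adding ATRA to ATO left 4 higher and 28 lower (all genes 27.5% and 27.0%), with RMI2 at -1.74 ± 0.083 and FANCE at -1.69 ± 0.092. NBN, RBBP8, MCM9 and FANCL were the 4 higher genes against each single drug in HL-60. For MCM9 the combination group overlapped the ATRA group, with combination library 2 at 36.9 CPM and ATRA library 2 at 37.5 CPM.

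The interaction asks whether the combination change differs from the sum of the single-drug changes on the log2 scale. In NB4 the interaction was called for 7 genes, 3 above the sum and 4 below (all genes 6.14% and 12.5%), and the split was 5 and 2 both with library totals and with DESeq2's size factors. BRCA2 (0.71 ± 0.17, edgeR adjusted p = 0.0038), RMI1 (0.55 ± 0.13, edgeR adjusted p = 0.00504) and MCM9 (0.44 ± 0.12, edgeR adjusted p = 0.0137) lay above the sum, and the combination level of each overlapped that of at least 1 single drug. Below the sum were XRCC3 (-0.44 ± 0.12, edgeR adjusted p = 0.0142), RMI2 (-0.35 ± 0.11), SLX4 (-0.32 ± 0.11) and FANCA (-0.30 ± 0.090). With the batch term RMI2 and SLX4 were not called (edgeR adjusted p = 0.033 and 0.0448 without it, 0.0524 and 0.0609 with it). The count depended on single libraries: it was 20 without ATRA library 2, the one that stood apart, and 4 without untreated library 2, ATRA library 1, ATO library 1 or combination library 3. In HL-60 the interaction was called for 17 genes, 3 above and 14 below (all genes 14.4% and 18.1%). NBN (0.65 ± 0.090, edgeR adjusted p = 8.66e-06) and RBBP8 (0.35 ± 0.089, edgeR adjusted p = 0.00432) led above the sum, ahead of USP1 at 0.25 ± 0.084. FANCE (-1.29 ± 0.12, edgeR adjusted p = 5.13e-08) and RMI2 (-1.10 ± 0.11, edgeR adjusted p = 1.27e-07) led below it, ahead of EME1 at -0.79 ± 0.11, FANCG at -0.77 ± 0.093 and FAAP100 at -0.70 ± 0.15.

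**Figure D5:**
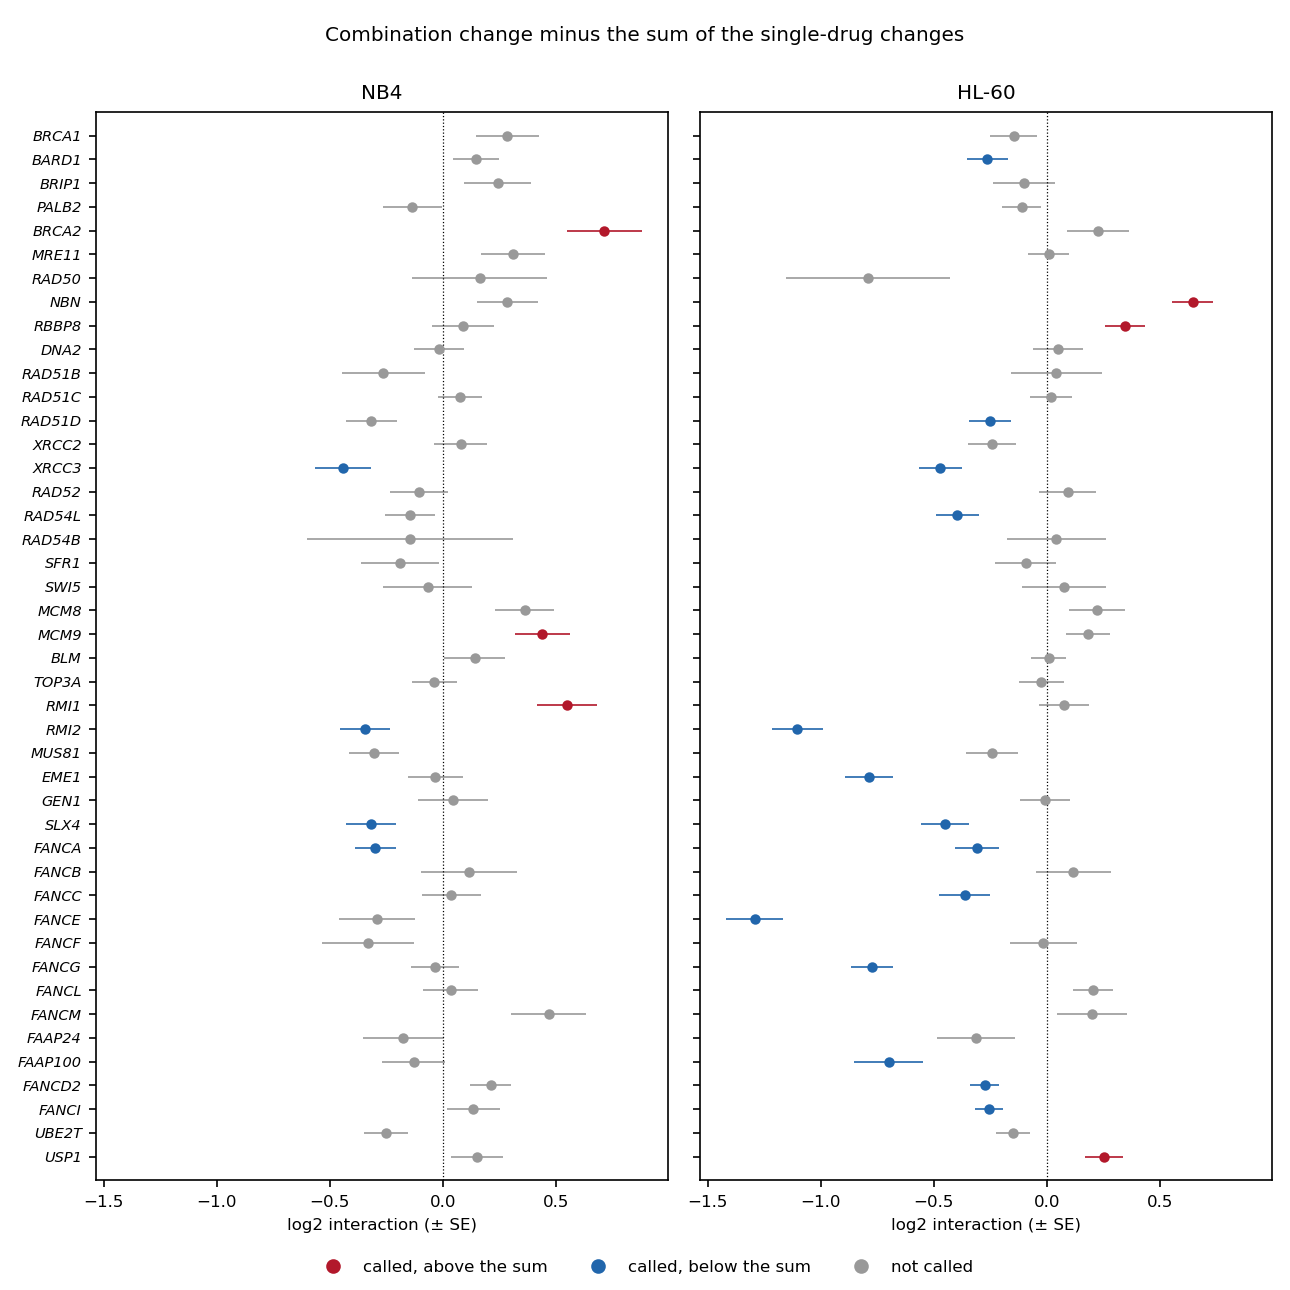
Interaction of ATRA and ATO for the 44 genes in NB4 (left) and HL-60 (right), as the log2 combination change minus the sum of the single-drug changes, with SE bars and a shared axis. Red is called above 0 and blue called below; HL-60 has 14 genes below, with FANCE at -1.29 and RMI2 at -1.10.

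Other genes of the pathway and of the cell cycle were read against the all-gene shares for the combination, 35.4% higher and 32.8% lower in NB4 and 30.7% and 29.7% in HL-60. Of 41 tested genes among the other recombination and Fanconi genes, the combination gave 8 higher and 19 lower in NB4 and 5 higher and 24 lower in HL-60, so 46.3% and 58.5% were lower. EXO1, an exonuclease of resection, changed by -1.25 ± 0.085 and -0.85 ± 0.054, the checkpoint kinase CHEK1 by -0.87 ± 0.079 and -0.62 ± 0.052, and EME2, an alternative partner of MUS81, by 1.14 ± 0.095 and 0.53 ± 0.11. DNA replication genes gave 3 higher and 31 lower of 39 in NB4 (79.5% lower, median -0.52) and 0 higher and 39 lower in HL-60 (median -0.70). MCM7, a subunit of the replicative helicase, changed by -1.86 ± 0.065 and -1.55 ± 0.045. The G2 and mitosis list of 22 gave 3 higher and 10 lower in NB4 and 2 and 17 in HL-60, with 45.5% and 77.3% lower. Among regulators of these genes, 4 of 23 were higher and 13 lower in NB4 and 5 of 24 higher and 12 lower in HL-60 (56.5% and 50% lower), with E2F1 at -0.97 ± 0.078 and -0.89 ± 0.066 and the cell-cycle inhibitor CDKN1A at 4.01 ± 0.24 and 1.18 ± 0.24. The part of these lists, and of the shifts in myeloid, monocyte and lymphoid markers, in the falls of the 44 genes was not tested.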

How the data were processed

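RNA was measured by oligo(dT)-selected, paired-end 150 bp sequencing with a kit that does not mark strand, per the labels. The deposited values are raw read counts per gene; the submitters' processing notes name fastp, HISAT2, featureCounts, DESeq2 and GRCh38, and their versions were not given in the sources used here. Among counts of 1 to 9, 74.4% were even, against 51.5% of counts of 500 or more, so mates may have been counted separately; the annotation release is not given. All 24 columns matched 1 sample each, and 44 pseudoautosomal Y copies held 0 counts. Symbols, loci and exon lengths came from GENCODE 29, which held 58437 of 60655 identifiers.

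Counts were tested as deposited with edgeR 4.0.16 (R 4.3.3; default low-count filter, TMM) in 1 fit per line (12 libraries, 8 residual degrees of freedom; 16370 genes in NB4 and 15895 in HL-60) and in 1 fit of 24 libraries (17930 genes) for differences between lines, in 16 comparisons adjusted separately. The fits were also run on counts simulated from the spread they had estimated, with no batch and no library that stood apart. That run could not test how they cope with such features of these data. Per-library values are given for BRCA1, BRCA2, FANCD2 and FANCA, and for genes among the 4 largest called falls or rises with the combination in either line or among the 2 largest called changes of each sign in a line difference or an interaction; from other lists at most the 4 genes with the smallest p were named. The members and lists were chosen with earlier results of these data known. The labels name the replicate number a batch, which pairs same-numbered libraries. Residual correlations of these pairs, 18 per line, ran from -0.0812 to 0.0383 in NB4 and from -0.00807 to 0.0589 in HL-60. Those of differently numbered pairs, 36 per line, ran from -0.0532 to 0.0537 and from -0.0682 to 0.0197. Medians of same-numbered and differently numbered pairs were -0.000479 and 0.00392 in NB4, and 0.00846 and -0.00382 in HL-60. The fits reported have no batch term. Alternatives were DESeq2 1.42.0, limma-voom (limma 3.58.1), other scalings and filters, a batch term, halved counts, other sets of libraries and each library left out.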

Additional observations from a re-analysis of the deposited data

Results flagged for a closer look

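The responses of the 2 lines to the same treatment differed for 52 pairs of gene and treatment by the test of the difference itself (edgeR's quasi-likelihood test on the 24 libraries, adjusted p below 0.05). Values in parentheses are log2 response in NB4 minus log2 response in HL-60, from 3 libraries in each group. With ATRA 18.2% of the 44 genes were lower and 15.9% higher, near the 16.8% and 17.7% of all 17930 genes. With ATO the shares were 13.6% and 2.27%, against 6.00% and 7.11% of all genes. With both drugs they were 22.7% and 45.5%, against 22.7% and 24.9%.

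With ATRA, 8 genes responded lower in NB4 than in HL-60, namely XRCC2 (-0.93), BRCA2 (-0.71), FANCM (-0.69), MCM9 (-0.63), RBBP8 (-0.59), PALB2 (-0.42), FANCL (-0.40) and USP1 (-0.28). In the other direction were 7 genes, FANCA (0.30), RAD51D (0.36), SFR1 (0.42), SLX4 (0.49), FAAP24 (0.60), FANCF (0.68) and RMI2 (1.05). With the batch term the SFR1 difference was not called (edgeR adjusted p = 0.0552).

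With ATO, the genes lower in NB4 were RBBP8 (-0.56), FANCE (-0.47), RMI1 (-0.45), FANCL (-0.43), NBN (-0.43) and MCM9 (-0.34). SLX4 alone was higher (0.33). With the batch term the MCM9 difference under ATO was just above the threshold.

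With both drugs, the lower genes in NB4 were RBBP8 (-1.40), FANCL (-0.99), XRCC2 (-0.91), NBN (-0.85), FANCM (-0.72), MCM9 (-0.70), USP1 (-0.69), PALB2 (-0.68), BRCA2 (-0.66) and UBE2T (-0.23). The larger set of higher values, 20 genes, held TOP3A (0.27), GEN1 (0.37), SFR1 (0.41), FANCA (0.42), FANCD2 (0.44), RAD54L (0.45), SWI5 (0.48), RAD51B (0.49), FANCC (0.50), FANCI (0.52), MUS81 (0.53), RAD51D (0.57), EME1 (0.62), FANCE (0.65), FAAP100 (0.65), FANCG (0.68), FANCF (0.77), FAAP24 (0.79), SLX4 (0.97) and RMI2 (1.96). With the batch term the SWI5 difference was not called (edgeR adjusted p = 0.0532).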

How the results depend on the processing

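No member was called in opposite directions in any setting. With 11 named alternatives and 24 libraries left out in turn, the count of called genes stayed within 1.5 times its value for 13 of the 16 comparisons, and 32 of 38 combination calls in NB4 and 35 of 36 in HL-60 held in every alternative. The NB4 interaction, 7 genes, gave 2 at an adjusted p below 0.01, 11 in a fit of all 24 libraries and from 4 to 20 with 1 library left out. The HL-60 ATO response, 10 genes, gave 4 at an adjusted p below 0.01, 18 when only the groups compared were fitted and from 5 to 12 with 1 library left out. The difference between lines with ATO, 7 genes, gave 2 at an adjusted p below 0.01 and from 4 to 7 with 1 library left out. The cause was not tested. With a replicate block for the batch number, 18 of 704 calls differed, 10 lost and 8 gained, and counts became 31, 23 and 38 in NB4 and 23, 11 and 36 in HL-60 for ATRA, ATO and both drugs. Calls lost with the block were RAD50 between untreated lines (adjusted p 0.0657), DNA2 (0.0556) and SWI5 (0.0590) in NB4 against ATRA, SFR1 (0.0552) in the line difference with ATRA, SWI5 (0.0532) and MCM9 (0.05, just above the threshold) in those with both drugs and ATO, RMI2 (0.0524) and SLX4 (0.0609) in the NB4 interaction, FANCA (0.0679) with ATO and FANCE (0.0520) with ATRA in NB4. Library totals in place of TMM moved the median of all genes from 0.02 to 0.13 for NB4 ATO, from -0.01 to 0.14 for the NB4 combination against ATRA and from 0.11 to 0.24 for the combination difference between lines. RAD50 and RAD54B had 3375 and 3568 counts over 24 libraries, which limits their precision.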
